A study of Homo sapiens and Mus musculus with 54 samples.

Results

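The genes described here encode 34 phase II enzymes, out of 19970 protein-coding genes that the RefSeq table of GRCh38.p14 places on the autosomes or X. They included 9 UDP-glycosyltransferases (UGT2B4, UGT2B7, UGT2B10, UGT2B11, UGT2B15, UGT2B17, UGT2B28, UGT2A3 and UGT3A1). There were 11 cytosolic or mitochondrial glutathione transferases (GSTA1 to GSTA4, GSTM2 to GSTM5, GSTP1, GSTO1 and GSTK1) and 3 membrane glutathione transferases (MGST1 to MGST3). The others were 6 sulfotransferases (SULT1A1, SULT1A2, SULT1B1, SULT1C2, SULT1E1 and SULT2A1), the N-acetyltransferases NAT1 and NAT2, the methyltransferases TPMT and NNMT, and EPHX1, the microsomal epoxide hydrolase. The genes were chosen by name, with no cutoff on a measured value, but with earlier results of these data known. An entry of a peak list was counted for a gene when it lay within 50 kb of the gene body. Members whose widened windows overlapped were joined into 1 locus, which gave 21 loci, 15 of them with a single gene, and an entry was counted once per locus.

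The libraries came from HepG2, a human liver cancer cell line, on day 12 of culture, either control (Cont) or deficient in vitamin B2 (B2_minus). ChIP-seq, which sequences DNA bound by a protein or carrying a histone mark, was done for the aryl hydrocarbon receptor (AhR) with 2 control and 2 B2_minus libraries, for C/EBPα with 2 and 2, and for histone H3 acetylated at lysine 27 (H3K27ac), a mark of active enhancers and promoters, with 5 and 5. A separate H3K27ac experiment had 2 Cont_DMSO, 2 B2_minus_DMSO and 2 B2_minus_AhRinh libraries, where DMSO is the vehicle and AhRinh an AhR inhibitor. Inputs numbered 6. Each of the 4 HepG2 lists is named for an experiment and gives positions with no value per library, and which libraries went into it is unknown. Control and B2_minus cells, or inhibitor and vehicle, could therefore not be compared, and no result below is a response to vitamin B2. The lists held 56739 AhR peaks, 62761 C/EBPα peaks, 106666 H3K27ac regions and 97145 H3K27ac regions for the inhibitor experiment. Read depth is unknown, and cell identity could not be checked against marker expression because positions carry no expression.

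Many phase II enzymes attach a polar group to drugs, hormones, bilirubin or the products of phase I oxidation. The conjugates are easier to excrete in bile or urine. The UGT2 enzymes use UDP-glucuronic acid, glutathione transferases use glutathione, sulfotransferases use the sulfate donor PAPS, N-acetyltransferases use acetyl-CoA, and TPMT and NNMT use S-adenosylmethionine. AhR is a ligand-activated transcription factor that pairs with ARNT on DNA and is classically known for inducing cytochrome P450 genes together with several conjugation enzymes. C/EBPα is a liver-enriched factor that helps maintain hepatocyte gene expression.

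Of the 10 member promoters overlapped by an AhR or C/EBPα peak, 9 are shown here because the start sites of these genes are described in detail below. RefSeq promoter windows (GRCh38.p14, 250 bases before to 50 after the start site) matched 25 of the 34 members. An AhR peak overlapped 7 of the 25 windows, against 6.90% of 15811 windows of all genes, and a C/EBPα peak overlapped 7 of 25, against 10.3%. The sequences are written 5′ to 3′ on the gene's strand, and capitals mark matches to GCGTG (the core of the AhR response element), TTGCNNAA (a C/EBP-type site) or TGACNNNGC (the core of the antioxidant response element), searched on both strands. UGT2B7 lies at chr4:69096224-69096523 (plus strand), UGT2B10 at chr4:68815744-68816043 (plus), UGT2A3 at chr4:68951755-68952054 (minus) and UGT2B11 at chr4:69214699-69214998 (minus). GSTA1 lies at chr6:52803767-52804066 (minus), GSTA2 at chr6:52763426-52763725 (minus) and GSTO1 at chr10:104254642-104254941 (plus). SULT1C2 lies at chr2:108288645-108288944 (plus) and SULT2A1 at chr19:47886266-47886565 (minus). UGT2B11 and GSTA2 carried a C/EBPα peak with no AhR peak, and the other promoters shown carried an AhR peak. The promoter not shown, that of SULT1E1, carried a C/EBPα peak alone. GSTA2 was added after its values were seen, for comparison with GSTA1.
UGT2B7: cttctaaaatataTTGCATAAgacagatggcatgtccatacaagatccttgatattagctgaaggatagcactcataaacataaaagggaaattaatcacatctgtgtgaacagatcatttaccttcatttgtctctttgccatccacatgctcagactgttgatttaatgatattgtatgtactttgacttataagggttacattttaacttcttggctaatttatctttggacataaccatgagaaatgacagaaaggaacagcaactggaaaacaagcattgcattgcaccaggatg
UGT2B10: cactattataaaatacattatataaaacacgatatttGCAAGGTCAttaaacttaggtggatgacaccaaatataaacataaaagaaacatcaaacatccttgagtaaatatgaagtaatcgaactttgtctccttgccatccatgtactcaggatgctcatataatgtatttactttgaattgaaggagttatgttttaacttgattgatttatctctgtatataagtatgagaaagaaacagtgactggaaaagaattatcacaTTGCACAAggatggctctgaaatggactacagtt
UGT2B11: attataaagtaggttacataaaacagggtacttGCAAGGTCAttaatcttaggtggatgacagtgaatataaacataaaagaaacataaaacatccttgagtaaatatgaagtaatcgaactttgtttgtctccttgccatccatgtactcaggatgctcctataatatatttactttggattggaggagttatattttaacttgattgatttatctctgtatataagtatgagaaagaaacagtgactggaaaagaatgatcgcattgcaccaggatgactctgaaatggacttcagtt
UGT2A3: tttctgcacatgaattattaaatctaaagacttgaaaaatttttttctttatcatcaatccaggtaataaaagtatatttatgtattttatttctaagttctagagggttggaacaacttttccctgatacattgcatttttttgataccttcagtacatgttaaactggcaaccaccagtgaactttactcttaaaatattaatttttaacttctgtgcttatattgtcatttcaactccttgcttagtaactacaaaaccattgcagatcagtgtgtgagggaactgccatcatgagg
GSTA1: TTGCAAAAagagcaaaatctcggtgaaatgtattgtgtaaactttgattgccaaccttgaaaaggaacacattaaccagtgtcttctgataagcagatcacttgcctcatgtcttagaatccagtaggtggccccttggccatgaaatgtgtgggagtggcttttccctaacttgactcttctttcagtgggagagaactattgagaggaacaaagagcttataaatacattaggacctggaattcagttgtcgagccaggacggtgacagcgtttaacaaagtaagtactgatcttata
GSTA2: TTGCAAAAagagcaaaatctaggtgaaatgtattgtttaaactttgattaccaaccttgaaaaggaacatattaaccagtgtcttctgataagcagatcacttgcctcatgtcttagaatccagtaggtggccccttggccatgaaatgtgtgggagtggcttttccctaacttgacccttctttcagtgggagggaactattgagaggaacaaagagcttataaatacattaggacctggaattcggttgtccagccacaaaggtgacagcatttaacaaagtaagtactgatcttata
GSTO1: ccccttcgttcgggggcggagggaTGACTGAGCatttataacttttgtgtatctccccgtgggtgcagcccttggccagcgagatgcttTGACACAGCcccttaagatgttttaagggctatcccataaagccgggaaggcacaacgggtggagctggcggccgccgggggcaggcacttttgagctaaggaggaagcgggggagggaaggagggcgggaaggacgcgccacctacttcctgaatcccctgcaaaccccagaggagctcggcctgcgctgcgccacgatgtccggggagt
SULT1C2: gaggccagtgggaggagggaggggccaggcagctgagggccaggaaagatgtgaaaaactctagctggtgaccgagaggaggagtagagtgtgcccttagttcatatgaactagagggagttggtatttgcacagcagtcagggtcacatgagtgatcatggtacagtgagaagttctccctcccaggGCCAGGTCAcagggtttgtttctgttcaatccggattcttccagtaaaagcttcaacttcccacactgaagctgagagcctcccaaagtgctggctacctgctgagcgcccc
SULT2A1: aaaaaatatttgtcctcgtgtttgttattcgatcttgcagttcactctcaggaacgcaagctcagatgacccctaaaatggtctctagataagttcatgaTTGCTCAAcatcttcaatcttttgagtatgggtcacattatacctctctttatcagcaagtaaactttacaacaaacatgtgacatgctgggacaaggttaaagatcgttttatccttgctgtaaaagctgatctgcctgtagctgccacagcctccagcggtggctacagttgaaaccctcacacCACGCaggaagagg

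Of 22 pairs of relatives compared, the 2 with the most alike promoters had different entries. Identity in the other pairs ran from 43.1% (GSTM3 and GSTM5) to 71.7% (GSTM2 and GSTM5). GSTA1 and GSTA2, alpha-class enzymes with broad peroxidase and conjugating activity in liver, were identical at 288 of 300 aligned promoter positions (96.0%). The GSTA1 promoter held an AhR peak centred 191.5 bp before the start and a C/EBPα peak with merge number 3. The merge number was taken as the number of peaks joined into 1 entry, which the sources used here do not state. The GSTA2 promoter held a C/EBPα peak with merge number 1 and no AhR peak. UGT2B10 and UGT2B11 were identical at 274 of 304 alignment columns (90.1%). UGT2B10, which glucuronidates nicotine and other tertiary amines, held AhR and C/EBPα peaks at its promoter, while UGT2B11 held a C/EBPα peak alone. The placing of reads from near-identical copies, not given in the sources used here, leaves entries at these pairs uncertain.

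The C/EBP-type letters were found in 8 of 25 member promoters, against 8.37% of all 15811 windows and 19.8% of the 1629 windows that overlapped a C/EBPα peak. GSTA1 and GSTA2, whose promoters are nearly identical, are both among the 8 and hold the same match. In SULT2A1 the match TTGCTCAA, 150 bp before the start, lay within both the AhR and the C/EBPα peak. The same was true of TTGCACAA in UGT2B10, 17 bp after its start, and of TTGCAAAA in GSTA1, 250 bp before its start. The TTGCAAAA match in GSTA2 lay outside its C/EBPα peak, and TTGCATAA in UGT2B7 lay outside both its AhR and C/EBPα peaks. The matches in UGT2B15, GSTM3 and GSTK1 lay in promoters with neither peak. The AhR core letters were found in 5 of 25 member promoters, against 44.1% of all windows and 52.2% of the 1091 windows overlapping an AhR peak. Of the 7 member promoters with an AhR peak, SULT2A1 alone held them, as CACGC on the opposite strand, 37 bp after the start and inside the peak. The antioxidant core letters were found in 7 of 25 member promoters, against 14.3% of all windows and 16.6% of the windows overlapping an AhR peak. GSTO1 held 2 matches, both within its AhR peak. The matches in UGT2B10 and SULT1C2 also lay within their AhR peaks. These matches describe letters in a 300-base window and do not locate a bound site. The shares take no account of the base composition of the windows.

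AhR entries lay near most of the genes. An AhR peak was within 50 kb of 31 of 34 members, beside 85.4% of all genes. A C/EBPα peak was near 33 of 34, beside 88.6%, and an H3K27ac region was near 34 of 34, beside 90.4%. In the inhibitor-experiment list the count was 33 of 34, beside 88.1%. An AhR peak with both partners, meaning C/EBPα and H3K27ac entries over it, was near 30 of 34 members, beside 62.2% of all genes. An AhR peak touched the gene body itself in 21 of 34 members, beside 47.0%, and a C/EBPα peak did so in 23 of 34, beside 51.4%. Members of 1 cluster share entries, so these counts are not independent.

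For AhR and C/EBPα, members had more entries than all genes by median and by mean, while for H3K27ac the median and the mean differed in direction. The median was 6 AhR peaks within 50 kb, from 0 to 17, against 4 over all genes, and 21 of 34 members had more than 4, beside 41.9% of all genes. The median for C/EBPα was 6 against 4, for H3K27ac 7.5 against 7, and for the inhibitor-experiment regions 6.5 against 6. The means were 6.35 against 4.82 for AhR and 6.65 against 5.50 for C/EBPα. For H3K27ac the means ran the other way, 8.62 against 9.48, and 7.68 against 8.79 in the inhibitor-experiment list. At least 10 AhR peaks were found near 8 of 34 members, beside 13.2% of all genes. The median gene body was 19.6 kb for members and 24.2 kb for all genes, and per 100 kb of window the AhR medians were 4.64 and 2.58. By the same measure the medians were 4.39 and 2.94 for C/EBPα and 5.86 and 4.72 for H3K27ac. They were 5.54 and 4.18 for the inhibitor-experiment regions.

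**Figure D1:**
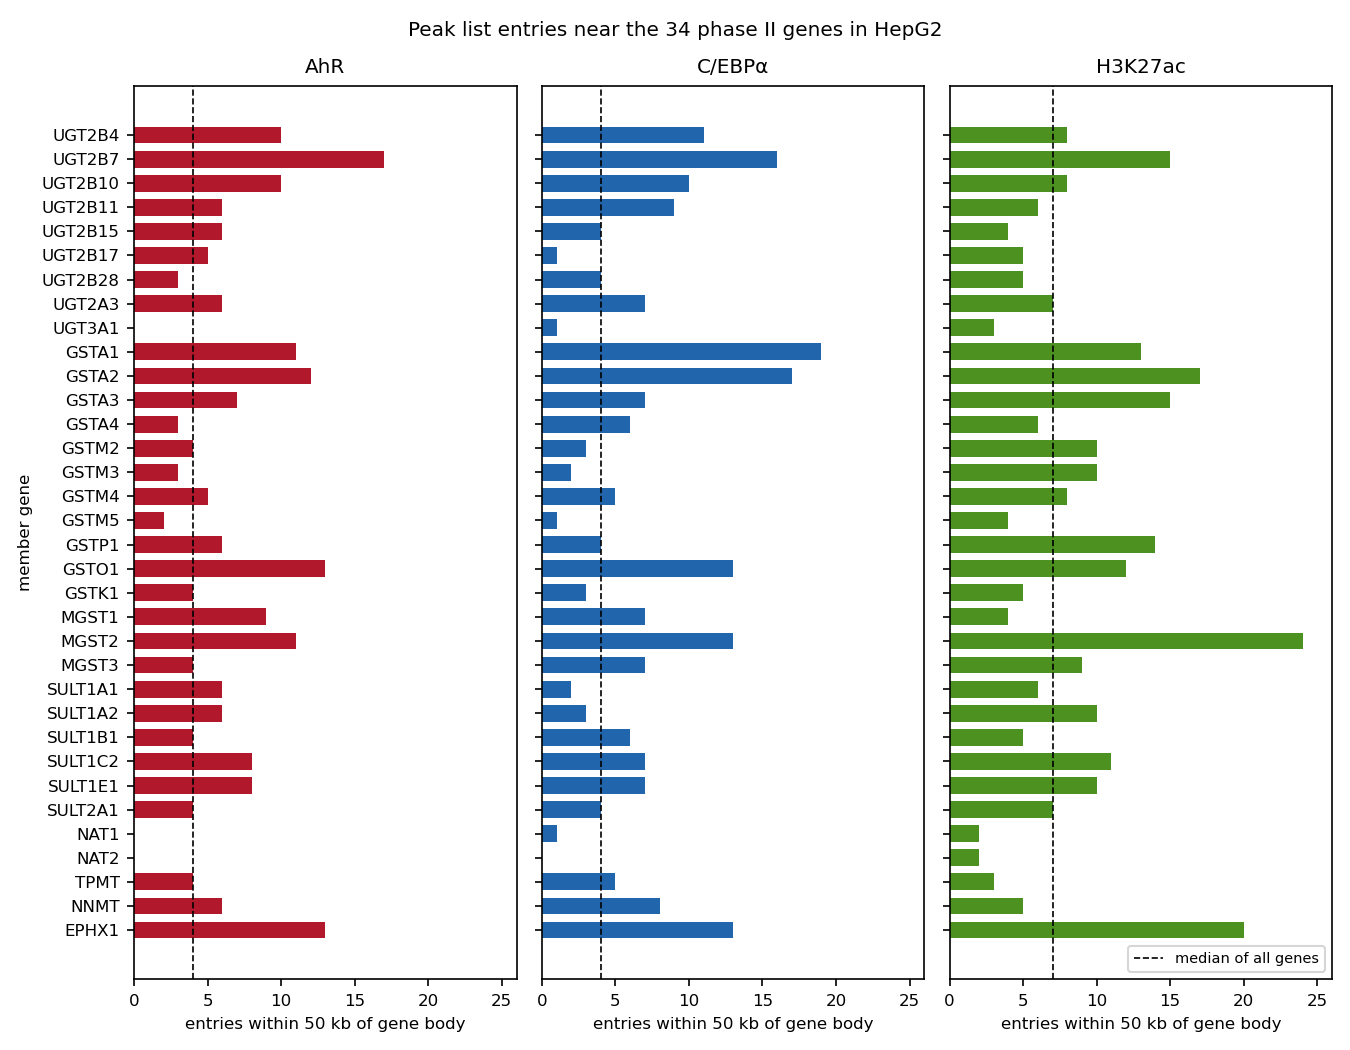
Entries within 50 kb of each of the 34 gene bodies in the AhR, C/EBPα and H3K27ac lists, with bars for counts and a dashed line at the median of all protein-coding genes (4, 4 and 7). UGT2B7 leads the AhR panel with 17 peaks, GSTA1 the C/EBPα panel with 19 and MGST2 the H3K27ac panel with 24, while UGT3A1, NAT1 and NAT2 have no AhR bar.

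The glucuronosyltransferase genes on chromosome 4 included the locus with the most AhR peaks by count. The locus from UGT2B10 to UGT2B28, which joins UGT2B10, UGT2A3, UGT2B7, UGT2B11 and UGT2B28, spans 579 kb and held 38 AhR peaks, 40 C/EBPα peaks and 38 H3K27ac regions. Of the 38 AhR peaks, 15 overlapped both partners, 13 C/EBPα alone, 8 H3K27ac alone and 2 neither, and a member was the nearest gene for all 38. It was also the widest of the 21 loci, and per 100 kb its 6.56 AhR peaks were fewer than at GSTO1 (11.5), EPHX1 (9.60), UGT2B4 (6.86), the GSTA locus (6.66) and SULT1C2 (6.61). UGT2B7, the main enzyme glucuronidating morphine, had 17 AhR peaks, a number reached by 2.95% of all genes, and 12 of them touched its gene body. That body is annotated from 69051375 to 69112987, and the start site used here, 69096474, lies inside it. UGT2B10 had 10 AhR peaks, UGT2B11 and UGT2A3 had 6 each, and UGT2B28 had 3, none within 10 kb of its body.

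The other UDP-glycosyltransferases fell into 3 groups. UGT2B4, which glucuronidates bile acids, formed its own locus with 10 AhR peaks, 11 C/EBPα peaks and 8 H3K27ac regions, and 4 of the AhR peaks touched the gene. Its AhR peaks at chr4:69485172-69485431 and chr4:69518075-69518334 lay inside the gene and overlapped both partners. UGT2B15 and UGT2B17, which glucuronidate androgens, shared a locus with 8 AhR peaks, 3 of them inside UGT2B15 and 1 inside UGT2B17. UGT2B17 had a single C/EBPα peak within 50 kb. UGT3A1, on chromosome 5, had no AhR peak, 1 C/EBPα peak and 3 H3K27ac regions.

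**Figure D2:**
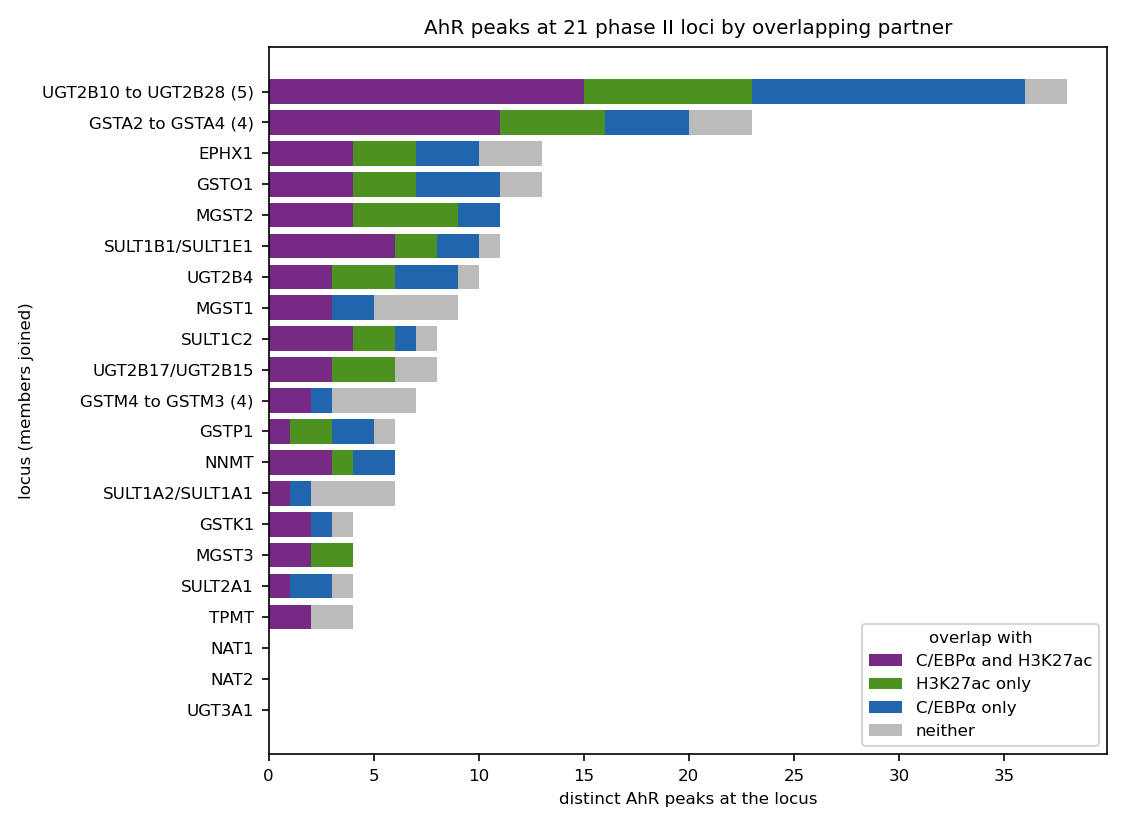
Distinct AhR peaks at each of the 21 loci, stacked by what they overlap: C/EBPα and H3K27ac, H3K27ac alone, C/EBPα alone or neither; numbers in parentheses give the members joined. The UGT2B10 to UGT2B28 locus has 38 peaks and the GSTA locus 23, and 15 and 11 of these overlap both partners.

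The glutathione transferase classes differed in where their entries lay. The alpha-class locus, GSTA1 to GSTA4 on chromosome 6, spans 345 kb and held 23 AhR peaks, 31 C/EBPα peaks and 38 H3K27ac regions. GSTA2 had 12 AhR peaks within 50 kb, GSTA1 had 11, GSTA3 had 7 and GSTA4 had 3. One AhR peak touched GSTA1 and 1 touched GSTA2, and none touched GSTA3 or GSTA4, whose product clears the lipid peroxidation product 4-hydroxynonenal. The mu-class locus, GSTM2 to GSTM5 on chromosome 1, held 7 AhR peaks, 7 C/EBPα peaks and 18 H3K27ac regions. None of those 7 AhR peaks touched a member body, and each was nearer to a gene outside the members. GSTM5 was the member with AhR peaks but none overlapping both partners.

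GSTO1, an omega-class enzyme that reduces dehydroascorbate and arsenic species, had 13 AhR peaks, 13 C/EBPα peaks and 12 H3K27ac regions. Of its 13 AhR peaks, 8 were merged entries, 5 touched the gene and 7 had GSTO1 as the nearest gene. GSTP1, the pi-class enzyme that is often silenced in liver cancer, had 6 AhR peaks, the nearest centred 2105.5 bp before the start, and none touched the gene. GSTK1, the mitochondrial and peroxisomal kappa-class enzyme, had 4, the nearest centred 3430.5 bp before the start.

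The membrane-bound enzymes held 24 distinct AhR peaks. MGST2, which can make leukotriene C4, had 11 AhR peaks, 13 C/EBPα peaks and 24 H3K27ac regions, and 7 of the AhR peaks touched the gene. One of them, at chr4:139665766-139665993, covered the lower end of the gene. MGST1 had 9 AhR peaks spread over a gene body of 246 kb, 7 of them touching it, with 7 C/EBPα peaks and 4 H3K27ac regions. Of its AhR peaks 3 overlapped both partners, among them chr12:16386043-16386269 and chr12:16493179-16493405, both inside the gene. MGST3 had 4 AhR peaks, and the 2 inside the gene overlapped both partners.

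All 6 sulfotransferases had an AhR peak touching the gene body, beside 47.0% of all genes. So did 6 of 9 UDP-glycosyltransferases, 3 of 11 cytosolic or mitochondrial glutathione transferases and 3 of 3 membrane enzymes. EPHX1 and both methyltransferases had one, and neither N-acetyltransferase did. These counts take no account of gene length. Bodies ran from 24.9 kb (MGST3) to 246 kb (MGST1) in the membrane enzymes. They ran from 2.84 kb (GSTP1) to 17.3 kb (GSTA4) in the cytosolic or mitochondrial glutathione transferases. In the sulfotransferases they ran from 5.11 kb (SULT1A2) to 39.5 kb (SULT1B1). SULT1E1, which inactivates estrogens, and SULT1C2 had 8 AhR peaks each. For SULT1C2, 2 of the 8 had it as the nearest gene, and 6 lay nearer to its neighbour SULT1C3. SULT1B1 shared a locus with SULT1E1 that held 11 AhR peaks, 6 of which overlapped both partners. SULT2A1, which sulfates DHEA and bile acids, had 4 AhR peaks, 4 C/EBPα peaks and 7 H3K27ac regions. SULT1A1 and SULT1A2, which sulfate phenols, shared all 6 AhR peaks of their locus, and 4 of the 6 overlapped neither partner. These paralogs lie side by side in similar sequence, so the assignment between them is uncertain.

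The N-acetyltransferases stood at the low end. NAT1 had no AhR peak, 1 C/EBPα peak and 2 H3K27ac regions. NAT2, the enzyme behind the slow and fast acetylator types, had neither an AhR nor a C/EBPα peak, and its 2 H3K27ac regions were listed in the experiment without inhibitor and not in the other. TPMT, which methylates thiopurine drugs, had 4 AhR peaks, and NNMT, which methylates nicotinamide, had 6, of which 4 touched the gene. EPHX1, which opens epoxides made by cytochrome P450 enzymes, had 13 AhR peaks, 13 C/EBPα peaks and 20 H3K27ac regions, with 4 AhR peaks touching the gene. Only 4 of the 13 had EPHX1 as the nearest gene, and 4 lay nearer to LEFTY1.

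Start sites were the next question. An AhR peak lay within 1 kb of the start of 10 of the 25 members with a placed start, beside 13.5% of 15811 genes, and a C/EBPα peak did so for 12 of 25, beside 20.8%. The 10 genes were UGT2B7, UGT2B10, UGT2A3, GSTA1, GSTO1, MGST1, SULT1C2, SULT1E1, SULT2A1 and TPMT. At UGT2B7 the AhR peak at chr4:69096258-69096556 was centred 67 bp before the start, and another at chr4:69095458-69095687 ended 787 bp before it. The UGT2B10 peak, chr4:68815708-68816126, was centred 77 bp before the start. UGT2A3 had AhR peaks at chr4:68951523-68951794 and chr4:68952243-68952456, on either side of its start.

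At SULT2A1 the AhR peak at chr19:47886261-47886540 was centred 85.5 bp before the start. The GSTA1 peak, chr6:52803895-52804120, and the SULT1C2 peak, chr2:108288667-108288876, were centred 191.5 and 123.5 bp before their starts. At GSTO1 the peak at chr10:104254471-104254786 was centred 263.5 bp before the start, and a further one at chr10:104255786-104255986 was centred 994 bp after it. The MGST1 peak, chr12:16346967-16347213, lay 555 bp and the SULT1E1 peak, chr4:69860991-69861211, lay 956 bp before the start, by their centres. The TPMT peak, chr6:18154573-18154827, was centred 469 bp after the start.

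These peaks were mostly paired with C/EBPα. Of the 13 AhR peaks centred within 1 kb of a member start, 10 overlapped a C/EBPα peak (76.9%, 95% Wilson interval 49.7% to 91.8%), against 824 of 2085 such peaks at all starts (39.5%, 37.4% to 41.6%). The 3 without one were the SULT1C2 and TPMT peaks and the GSTO1 peak before its start. Merged entries made up 7 of the 13, against 23.1% of the 2085. Wilson intervals here cover counting error over peaks only, and neighbouring peaks are not independent. MGST3, GSTA2, GSTA4 and UGT2B11 had a C/EBPα peak within 1 kb of the start and no AhR peak there.

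**Figure D3:**
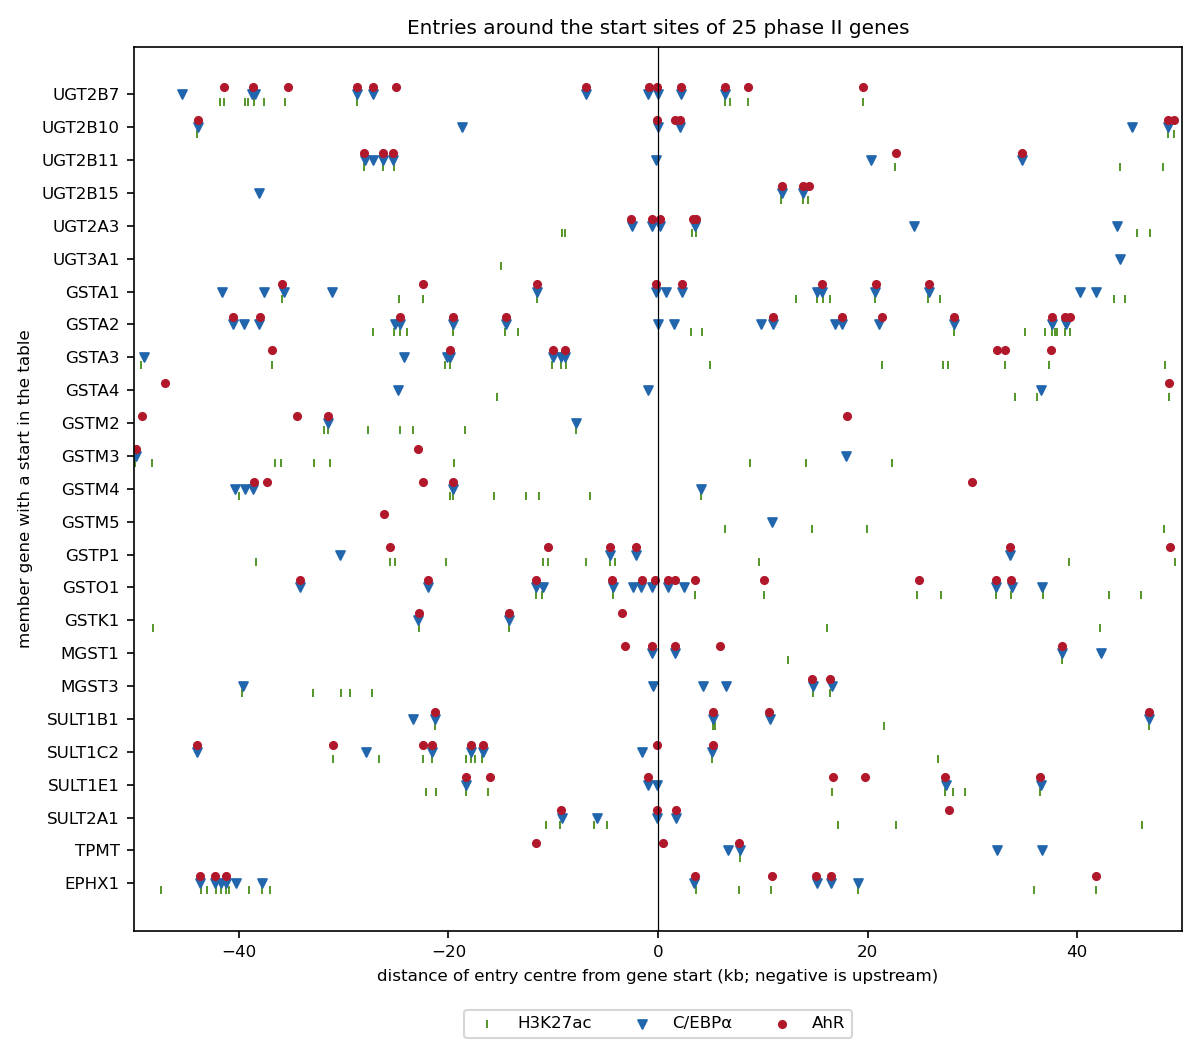
Centres of AhR (circles), C/EBPα (triangles) and H3K27ac (ticks) entries by distance in kb from the start of the 25 members with a placed start, negative being upstream; entries beyond the plotted 50 kb are not drawn. AhR and C/EBPα marks coincide near 0 at UGT2B7, UGT2B10, UGT2A3, GSTA1 and SULT2A1, and no H3K27ac tick lies within 1 kb of any of the 25 starts.

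None of the 25 members with a placed start had an H3K27ac region within 1 kb of it in either H3K27ac list. The same gap was seen beyond the members. Of the entries on chromosomes with starts in the promoter table, 0.717% of 102253 H3K27ac regions were centred within 3 kb of such a start. The shares were 8.39% of 54184 AhR peaks and 10.7% of 60058 C/EBPα peaks. The number of H3K27ac regions stepped from 162 in the last 500 bp inside 3 kb of a start to 1221 in the next 500 bp outside it. An absent region near a start is thus no evidence of unacetylated chromatin. Any removal of regions near starts before deposit was not given in the sources used here.

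AhR peaks at the loci, 185 distinct ones in all, were then sorted by partner. Both partners were overlapped by 71 (38.4%), C/EBPα alone by 43 (23.2%), H3K27ac alone by 39 (21.1%) and neither by 32 (17.3%). Over the whole list the shares were 41.1%, 14.2%, 29.5% and 15.1%. C/EBPα was overlapped by 114 of 185 (61.6%, 95% Wilson interval 54.4% to 68.3%), against 55.3% of all AhR peaks, a value inside that interval. H3K27ac was overlapped by 110 of 185 (59.5%, 52.3% to 66.3%), against 70.7%.

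The shares were also taken by distance from start sites, here counting both ends of a gene as starts where the promoter table has none, a wider set than in the preceding paragraphs. The whole list is then the 56690 AhR peaks on the autosomes or X. AhR peaks centred within 3 kb of a start made up 44 of 185 at the loci (23.8%, 18.2% to 30.4%), against 12.9% of the AhR peaks within 50 kb of any gene. Within 3 kb, 3 of 44 overlapped H3K27ac (6.82%, 2.35% to 18.2%), against 10.8% in the whole list. Beyond 3 kb, 107 of 141 did (75.9%, 68.2% to 82.2%), against 78.0%. The part of distance in the lower share over all 185 was not tested. For C/EBPα the shares were 26 of 44 (59.1%, 44.4% to 72.3%) within 3 kb, against 48.2%, and 88 of 141 (62.4%, 54.2% to 70.0%) beyond, against 56.2%. The 3-kb split was chosen after seeing the data.

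**Figure D4:**
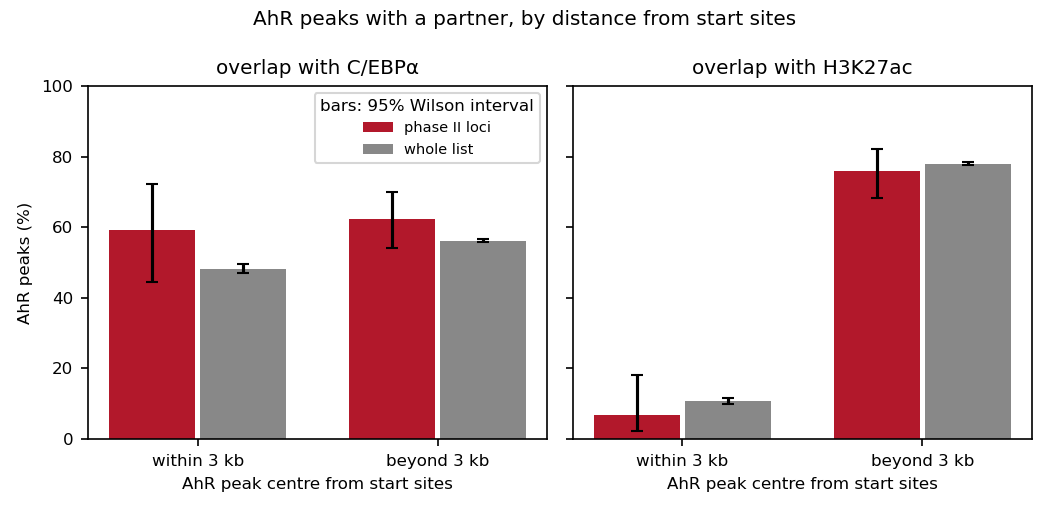
Percent of AhR peaks that overlap a C/EBPα peak (left) or an H3K27ac region (right), within and beyond 3 kb of a start site, at the phase II loci and in the whole list, with 95% Wilson intervals; both ends of a gene count as starts where none is placed. H3K27ac overlap at the loci is 6.82% within 3 kb and 75.9% beyond it, beside 10.8% and 78.0% in the whole list.

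Distances between centres were taken for the AhR peaks that overlapped a C/EBPα peak. Over the 114 AhR peaks with a C/EBPα peak, the median distance between centres was 21 bp, 96 were within 50 bp and the largest was 249 bp. The median AhR peak at the loci was 235 bp wide, so overlap by itself limits how far apart centres can lie. These distances have no whole-list value beside them and do not set the loci apart. Merged entries, with merge number 2, made up 92 of the 185 (49.7%, 42.6% to 56.9%), against 42.3% of the whole list. They made up 49 of the 71 AhR peaks with both partners (69.0%), against 63.8% in the whole list. With neither partner they were 4 of 32 (12.5%), against 13.3%. Among peaks with C/EBPα alone they were 23 of 43 (53.5%, 38.9% to 67.5%), against 33.1%. Among peaks with H3K27ac alone they were 16 of 39 (41.0%, 27.1% to 56.6%), against 31.6%. In the UGT loci 36 of 56 AhR peaks were merged (64.3%, 51.2% to 75.5%), and in the cytosolic and mitochondrial GST loci 23 of 53 (43.4%, 31.0% to 56.7%).

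Seen from the other lists, 114 of 193 C/EBPα peaks at the loci overlapped an AhR peak (59.1%, 52.0% to 65.8%), against 50.1% of the whole C/EBPα list. Of the 255 H3K27ac regions, 111 overlapped an AhR peak (43.5%, 37.6% to 49.7%), against 37.8%. At the UGT loci 36 of 57 regions did (63.2%, 50.2% to 74.5%), and at the cytosolic and mitochondrial GST loci 30 of 87 (34.5%, 25.3% to 44.9%).

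The H3K27ac list of the inhibitor experiment shared most regions with the other H3K27ac list. Of the 255 regions at the loci, 225 had identical coordinates in it (88.2%, 83.7% to 91.6%), against 87.4% of the whole list. Requiring only 1 shared bp gave the same 225, so every overlapping region was identical to the base, and the lists cannot be read as independent calls. The 30 regions listed without inhibitor only included 5 at MGST2, 3 each at the GSTA and GSTM loci and both regions at NAT2, and 6 of the 30 overlapped an AhR peak (20.0%), beside 23.2% of such regions in the whole list. The inhibitor-experiment list had 3 regions of its own, 2 inside NNMT and 1 near GSTK1, none with an AhR peak, beside 9.36% of such regions in the whole list. All 20 regions at EPHX1 and all 14 at the SULT1B1 and SULT1E1 locus were identical in both lists. Since that experiment includes DMSO libraries and the libraries behind each list are unknown, a region present in 1 list alone does not show an effect of the inhibitor.

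**Figure D5:**
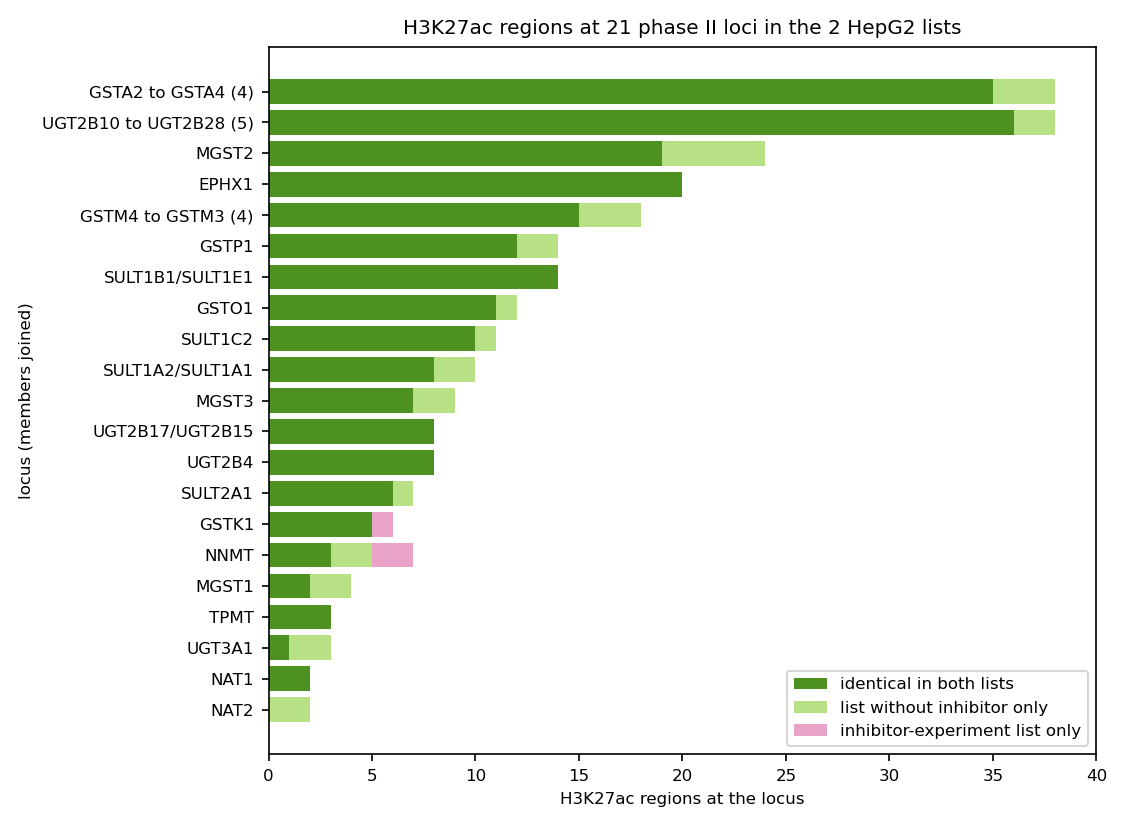
H3K27ac regions at each of the 21 loci, split into regions with identical coordinates in both lists, in the list of the experiment without inhibitor only, and in the inhibitor-experiment list only. Identical regions fill most bars, NAT2 has none, and the NNMT and GSTK1 bars carry the 3 regions of the inhibitor-experiment list alone.

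Other genes of the pathway were counted by the same rule. Of 28 further phase II enzymes, 25 had an AhR peak within 50 kb and 24 a C/EBPα peak. An H3K27ac region was near 27, and an AhR peak with both partners near 22. The shares of all genes were 85.4%, 88.6%, 90.4% and 62.2%. Their median was 8 AhR peaks, from 0 to 20, and 9 of 28 had 10 or more, beside 13.2% of all genes. UGT1A4, UGT1A6 and UGT1A9, 3 of these 9, overlap in 1 locus and share peaks. GSTA5 and GSTO2 are also among the 9. Both, like GSTM1, lie beside members and count some of the members' peaks again. GSTO2, the neighbour of GSTO1, had 20, and BAAT, which conjugates bile acids with glycine and taurine, had 15. UGT3A2, UGT8 and GSTT1 had none. All 11 genes for cofactor supply had AhR peaks, beside 85.4% of all genes, with a median of 8 from 5 to 16, the highest being AHCY, which clears S-adenosylhomocysteine after methylation. The conjugate exporters ABCC3, ABCC2 and ABCG2 had 21, 12 and 8.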

How the data were processed

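The libraries used here were HepG2 AhR, C/EBPα and H3K27ac ChIP with inputs, 30 of the 54 in the series, and the 24 mouse libraries were not used. The tools were Bowtie2 and HOMER (no versions listed) with builds hg38 and mm10, per the submitters' processing notes. AhR and C/EBPα cells were crosslinked with disuccinimidyl glutarate and formaldehyde and H3K27ac cells with formaldehyde alone, per the labels' protocols. The authors deposited, for each experiment, 1 list of genomic positions that holds no count, signal or score, so no precision from read depth can be given. The last number of an entry's name was taken as its merge number, the count of peaks joined into it, a reading that no source used here states. Caller settings, filters and the sets joined were not given in the sources used here.

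Entries were joined to RefSeq genes of GRCh38.p14, the assembly of hg38. Start sites and strands came from the RefSeq promoter table; UGT2B4, UGT2B17, UGT2B28, MGST2, SULT1A1, SULT1A2, NNMT, NAT1 and NAT2 were placed by gene ends. Overlap meant at least 1 shared bp. No test was run, because the lists hold no value per library: the report gives counts beside all genes and Wilson intervals at 95%. Groups came from the sample titles. Alternatives were a 10 kb window, the gene body, the nearest gene, merged entries, other overlap rules and the inhibitor-experiment list.

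All 34 members are accounted for. Positions are printed for AhR peaks within 1 kb of a start and for AhR peaks with both partners inside a gene, at most 3 per gene, and promoters for at most 8 members by rule, AhR first. Members and lists were chosen with earlier results of these data known. The routines were tested on simulated data. The software was Matplotlib 3.10.9, SciPy 1.17.1, pandas 2.3.3, NumPy 2.4.6 and Python 3.11.15.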

Additional observations from a re-analysis of the deposited data

How the results depend on the processing

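Counts of distinct entries at the loci depended on the window. With a 10 kb window the 185 AhR peaks became 101, the 193 C/EBPα peaks 110, the 255 H3K27ac regions 108 and the 228 inhibitor-experiment regions 100. Within gene bodies alone they became 73, 72, 64 and 62, and members with an H3K27ac region fell from 34 to 20 and those with an inhibitor-experiment region from 33 to 20. Smaller windows hold fewer entries by construction. With merged entries only, 92 AhR and 124 C/EBPα peaks were left, the AhR share with C/EBPα was 68.5% and that with H3K27ac 66.3%. The share with H3K27ac was 50.5% in the 10 kb window and 75.9% beyond 3 kb of start sites, a setting chosen after seeing the data. The cause of these shifts was not tested. The other 31 alternative values moved by less than 1.5 times for counts or stayed within the interval for shares. No paired analysis was possible because each list gives 1 set of positions for an experiment and no replicate columns, and for the same reason no replicate could be left out.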
